A study of Mus musculus with 12 samples.

Results

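Very long m6A peaks are called regions chosen by their measured width, the end minus the start of the peak, at 3000 bases or more. All 118075 peaks of the 6 deposited peak lists were screened, and 1853 met the width. The lists come from mouse spermatogonial stem cells (SSC, the self-renewing germ line cells of the testis, 3 lists) and from neural stem cell-like cells made out of them (iNSC, 3 lists). RNA carrying N6-methyladenosine (m6A) was pulled down with an antibody from fragmented poly(A) RNA, and each list holds the regions called in 1 pull-down library. The series as a whole is labelled MeDIP and methylation profiling, whereas its protocols describe this RNA pull-down.

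The SSC were grown on inactivated STO mouse fibroblast feeders in medium with LIF, EGF, bFGF and GDNF. The iNSC began as the same kind of culture, were plated on laminin after differential plating, received 1 µM retinoic acid for 24 h and then medium for neural cells to which bFGF and SB431542, which blocks TGF-beta type I receptors, were added. No genetic change is given for either group. Titles and source names set the groups, while the cell type field of all 12 samples names the opposite cell type. Replicates carry numbers, and nothing says that they are separate cultures, so p-values reflect only how far these libraries differ from each other, possibly for technical reasons. The 6 input libraries are not analysed here. Where no peak is listed, a transcript that is not made and one that is not methylated cannot be told apart. In the same way, fewer cells of a type cannot be told apart from less RNA per cell.

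m6A is the most common internal mark of mammalian messenger RNA. A nuclear methyltransferase of METTL3 and METTL14 writes it at a short consensus with the core GGAC, often in long internal exons and near stop codons, and proteins of the YTH family such as YTHDF1 read it. A called peak is a stretch of genome in which pull-down fragments pile up. A stretch of 3000 bases or more therefore covers many fragments and can hold many marked positions, which these lists do not resolve. Widths are genomic distances, and where such a stretch crosses an intron is not resolved here, since exon coordinates were not used.

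Sequence from RefSeq for GRCm38.p6 covered the first 50 transcribed bases of each gene, so it could be read where a long peak began at the transcription start. Such a start, within 1 base, was found for 109 long peaks of 37 genes. The core GGAC, searched on the transcript strand alone, stood in the first 50 bases of 6 of the 37 genes (16.2%) and in 6194 of 32851 start windows of that length (18.9%). The longer form GGACT, which contains GGAC, stood in 1 of the 37 genes and in 5.76% of the windows. A match is a description of letters and not a measured methylation site. The match is printed for the 3 genes named again below and for Chml, 5′ to 3′, with GGAC in capitals and up to 10 bases on each side within the 50.
Irf2bpl, chr12:86884785-86884808, minus strand: gccaagccggGGACagcgcgagcc
Chml, chr1:175688304-175688320, minus strand: gtaataatagGGACagg
Fzd7, chr1:59482182-59482196, plus strand: gggcggtgctGGACg
Jun, chr4:95052189-95052212, minus strand: ggctggataaGGACtcagagttgc
These 4 matches begin at transcribed base 17 (Irf2bpl), 44 (Chml), 46 (Fzd7) and 21 (Jun). The long peak of Irf2bpl, an intronless gene for a nuclear zinc-finger protein, began at the start site in 5 lists, and those of Fzd7, a Wnt receptor, and Jun, a subunit of the AP-1 transcription factor, did so in the 3 iNSC lists. Chml, a Rab escort protein gene, is uncertain because it lies within another gene's territory.

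The RefSeq miRNA table holds 2743 entries, and of the mature miRNAs among them 1 lay inside a long peak on the same strand. It is mmu-miR-8115, within P2rx7, the gene of an ATP-gated ion channel, at chr5:122682664-122682685 on the plus strand, printed with its seed (bases 2 to 8) in capitals.
mmu-miR-8115: cCGCAAUAgcaacaagggcucu
The P2rx7 peaks around it were 3376, 3428 and 3278 bases wide in the 3 iNSC lists. The SSC lists held no peak there in replicates 1 and 2 and 2 shorter peaks in replicate 3, the wider of 835 bases. A peak over poly(A) RNA at this place covers the host transcript and says nothing of the miRNA itself.

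The SSC lists held 185, 165 and 189 long peaks among 27597, 19728 and 24775 peaks in all. The iNSC lists held 459, 417 and 438 among 13913, 16002 and 16060. The iNSC lists were thus the shorter ones and held more long peaks, with no overlap between the groups: 179.7 ± 12.9 (SD, n = 3) in SSC and 438 ± 21 (SD, n = 3) in iNSC. As a share of its list the long peaks made up 0.670%, 0.836% and 0.763% in SSC and 3.30%, 2.61% and 2.73% in iNSC. Of the bases covered by all peaks they held 6.79%, 7.53% and 7.67% in SSC and 16.6%, 14.0% and 15.2% in iNSC. These values have no test, because width chose the peaks.

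**Figure D1:**
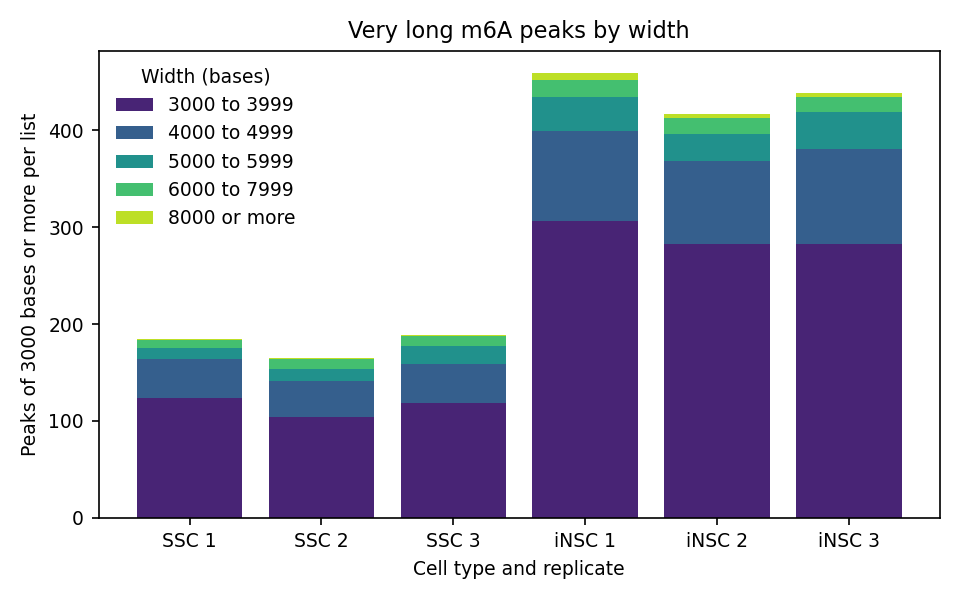
Number of peaks per list in bins of width (bases, 3000 and above), with 1 bar per list for the 3 SSC and 3 iNSC lists. From 3000 to 4000 bases the SSC lists hold 124, 104 and 119 peaks and the iNSC lists 306, 283 and 283, and at 8000 bases or more each SSC list holds 1 and the iNSC lists 7, 4 and 4.

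The typical long peak was of similar width in both cell types. Median widths were 3581, 3678 and 3742 bases in SSC and 3607, 3588 and 3642.5 bases in iNSC. The longest peak of each SSC list was 8020 bases. The plot of counts by width shows that the iNSC lists held more peaks in every bin. At the threshold itself, the narrowest long peaks were those of Exoc8 (3000 bases, SSC replicate 3), Pard3b (3000 bases, iNSC replicate 1) and Map3k7 (3001 bases, iNSC replicate 3). The widest peaks left out, all of 2998 bases, lay in Adcy9 (iNSC replicate 2), Arid5b and Wdr26 (both iNSC replicate 1).

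The long peaks fell almost entirely in protein-coding genes. Of the 1853, 1837 (99.1%) overlapped a protein-coding gene on their strand, against 98.5% of all peaks. Of the others, 4 lay in long noncoding RNA genes, 3 in pseudogenes and 9 in no RefSeq gene of their strand. In 51 cases a long peak overlapped at least 2 coding genes of its strand and could belong to either. Long peaks that share at least 1 base on a strand were merged into 635 loci in 614 genes, of which 16 genes held more than 1 locus. Each list had a long peak in 180, 164 and 183 genes in SSC and in 445, 401 and 425 genes in iNSC.

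Sharing was counted within and between the cell types. Of the 290 loci long in at least 1 SSC list, 85 (29.3%) were long in all 3 SSC lists. Of the 566 loci long in at least 1 iNSC list, 325 (57.4%) were long in all 3 iNSC lists. The same shares within a cell type are not given here for peaks of any width, so whether they are particular to long peaks was not tested. A total of 221 loci were long in both cell types, which is 76.2% of the SSC loci and 39.0% of the iNSC loci. Exactly 69 loci were long in all 6 lists, 11 in the 3 SSC lists and no iNSC list, and 145 in the 3 iNSC lists and no SSC list, which is 10.9%, 1.73% and 22.8% of the 635 loci. With a peak of any width in place of a long one, the same patterns held for 10.1%, 5.59% and 3.42% of 48292 merged regions of the whole series. Width enters the first set of shares and not the second, so nothing is read from the difference.

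**Figure D2:**
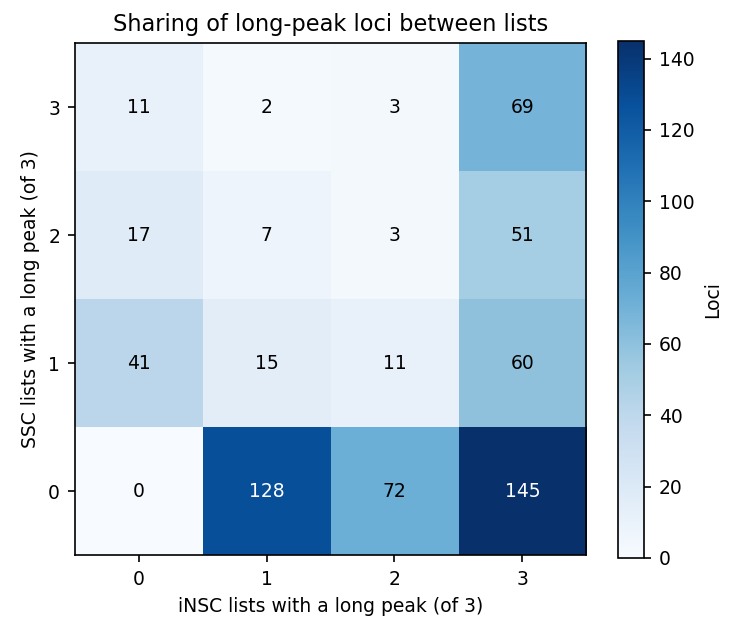
Number of loci by how many of the 3 iNSC lists (horizontal) and of the 3 SSC lists (vertical) hold a long peak there; colour gives the same count. The fullest cell, 145, is long in 3 iNSC and 0 SSC lists, 69 loci are long in all 6 lists, and 11 are long in 3 SSC and 0 iNSC lists.

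The widths often repeated to the base. At the 69 loci long in all 6 lists, 24 had the same start and end in every list, and 61 shared at least 1 edge across all 6. The same count for shorter peaks is not given here, and such repeats are not particular to long peaks. Both edges recurred in the other cell type for 22.6% to 24.5% of long and 45.6% to 50.3% of shorter iNSC peaks. In SSC it was 29.6% to 33.3% of long and 22.6% to 32.3% of shorter peaks. Spen, a transcriptional repressor that binds the Xist RNA, had a peak of 8020 bases in each of the 6 lists (chr4:141471370-141479389, minus strand). Mki67, the gene of the proliferation antigen Ki-67, had 6836 bases in each (chr7:135694232-135701067, minus strand). Brca2 in recombination repair (4809 bases), the zinc-finger gene Zfp462 (5594 bases) and the histone methyltransferases Ash1l (4558 bases) and Setd2 (4286 bases) also gave 1 width in all 6. Spen, Mki67 and Brca2 are known for a very long exon, and whether peak edges fall on exon edges was not tested.

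Other loci long in all 6 lists varied. Sh3pxd2a, the gene of a podosome scaffold protein, had peaks of 3465, 3573 and 3815 bases in SSC and 8763, 6929 and 5689 bases in iNSC, so the groups did not overlap there. Zfp518a, another zinc-finger gene, went the other way, with 6129, 6051 and 6124 bases in SSC and 3569, 5060 and 4967 bases in iNSC. In iNSC replicate 1 a further, shorter peak brought the covered share of the Zfp518a locus to 86.5%. Its peak in SSC replicate 2 scored 54.4, near the lowest deposited score of 50. Kat6a, a histone acetyltransferase gene, was also wider in SSC, with 4503, 5006 and 4502 bases against 4103, 4167 and 4299 bases. Plec, the gene of the cytoskeletal linker plectin, had 5975, 6079 and 7219 bases in SSC and 7412 bases in each iNSC list. At other loci the groups overlapped. In Apc, a negative regulator of Wnt signalling, widths ran from 7170 to 7377 bases in SSC and from 7043 to 7196 in iNSC, and in Med1, a Mediator subunit, from 6252 to 6315 and from 6146 to 6315. Across the 69 loci the ratio of the iNSC to the SSC mean width had a median of 1, from 0.743 to 1.97, with 33 loci wider in iNSC, 12 wider in SSC and 24 equal.

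Single genes held some of the widest peaks. Eppk1, the gene of the plakin epiplakin, had 10812, 10562 and 10421 bases in iNSC, and 759, 0 and 4128 bases in SSC. In SSC the next longest after Spen were Zfp292, with 7491 bases in replicate 1 and no peak in the other SSC lists, and Usf3, with 6208, 1805 and 7404 bases. Both were long in all iNSC lists, Zfp292 from 7461 to 7527 bases and Usf3 from 7130 to 7386 bases. In these 3 genes the iNSC values repeated closely, while the SSC lists disagreed among themselves.

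**Figure D3:**
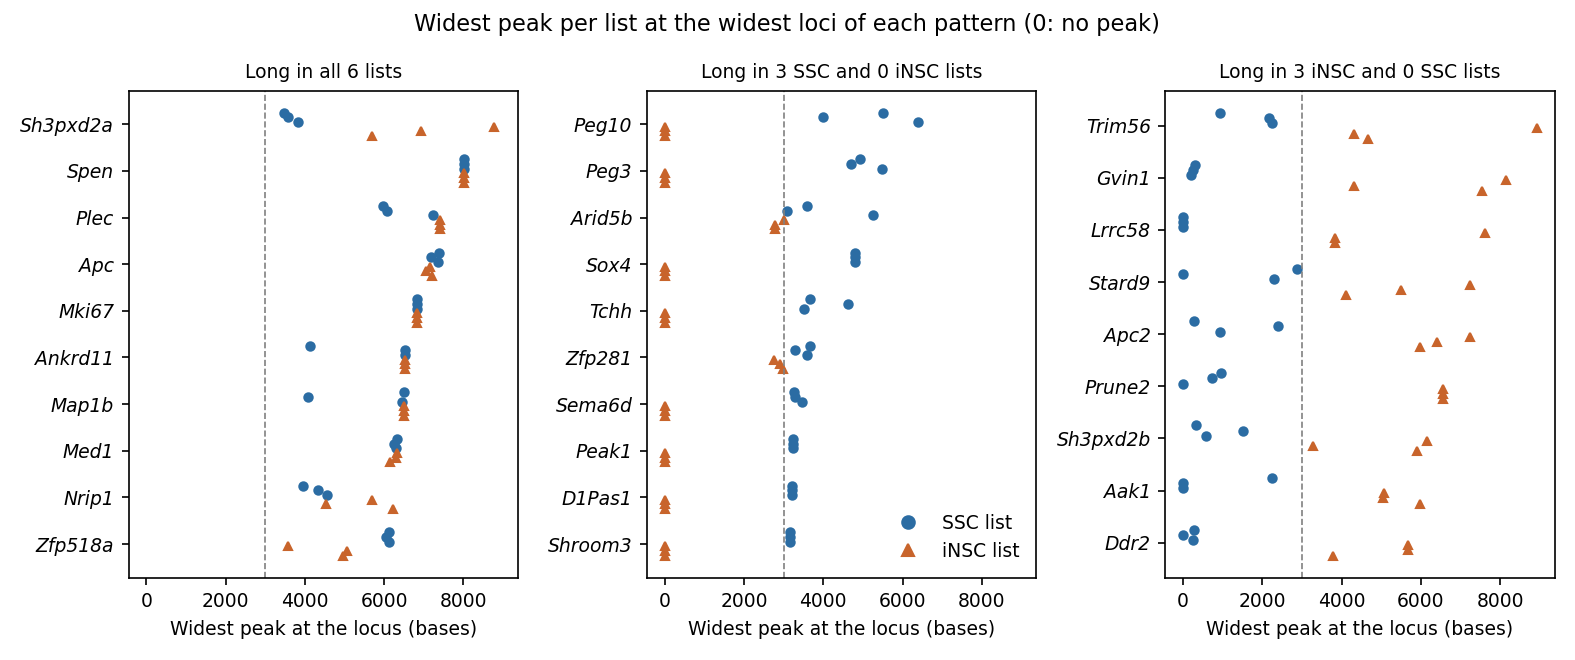
Width in bases of the widest peak that each list holds at the widest loci of each pattern (10, 10 and 9 shown), blue circles for SSC lists and orange triangles for iNSC lists; 0 means no peak and the dashed line marks 3000 bases. Spen and Mki67 overlay at 8020 and 6836 bases, 8 of the 10 loci in the middle panel have no iNSC peak, and most loci in the right panel have shorter SSC peaks.

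The widest of the 11 loci long only in the 3 SSC lists lay in Peg10 and Peg3, both imprinted and expressed from the paternal allele. Imprinting was taken up after the values were seen, without a list of imprinted genes, so it is background here and no count. Peg10, a gene derived from a retrotransposon, had peaks of 5499, 3988 and 6394 bases in SSC (chr6:4754124-4760517, plus strand). Peg3, a zinc-finger gene, had 4927, 4711 and 5482 bases (chr7:6706250-6711731, minus strand). This locus also overlaps Peg3os, annotated as an antisense RNA; the promoter table gives no strand for it, and the strand of the peaks was used in its place. No iNSC list had a peak of any width at either locus. D1Pas1, a testis-expressed autosomal copy of the RNA helicase Ddx3x, had 3212 bases in each SSC list, over the whole gene (chr1:186967416-186970627), and its reads can be shared with Ddx3x. Sox4, a transcription factor gene, likewise had 4795 bases in each SSC list over the whole gene (chr13:28948919-28953713).

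The other SSC loci were genes of structure, guidance and transcription. Tchh (trichohyalin) had 3655, 4617 and 3503 bases, Sema6d (a semaphorin guidance cue) 3257, 3290 and 3469, and Shroom3 (an actin regulator of cell shape) 3152, 3163 and 3163. The pseudokinase gene Peak1 had 3236 bases in each SSC list. None of these 4 had an iNSC peak. Arid5b, a DNA-binding chromatin factor, and Zfp281, a zinc-finger gene, were just under the threshold in iNSC: Arid5b had 3581, 3077 and 5258 bases in SSC and 2998, 2771 and 2771 in iNSC, and Zfp281 had 3667, 3279 and 3579 against 2747, 2919 and 2974. The eleventh, Csrnp2, had 3131 bases in each SSC list and from 2026 to 2187 in iNSC. So 8 of the 11 had no iNSC peak at all and 3 had a narrower one in every iNSC list.

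A peak of any width in the 3 SSC lists and in no iNSC list was found at 28 of the 635 loci (4.41%). Among them were also the imprinted genes Zdbf2 and Plagl1, chosen after their values were seen. Zdbf2 had 1310, 6642 and 6661 bases in SSC, and Plagl1, which encodes a zinc-finger protein, had 3065, 993 and 3215. By the rule for class lists, Zbtb16, which encodes the SSC factor PLZF, had 554, 3075 and 3075 bases, and Sox11, a transcription factor gene of the nervous system, 930, 3212 and 2206. Replicate 1 was the narrow one in Zdbf2, Zbtb16 and Sox11, and replicate 2 in Plagl1. Tex15, a germ cell gene of the piRNA pathway, had 7035 bases in SSC replicates 1 and 2 and no peak in the other 4 lists (chr8:33570544-33577578). Usp26, an X-linked testis gene, was long only in SSC replicate 1, with 3515 bases. Of 8 germ cell markers, 6, 5 and 6 had a peak of any width in SSC, and 0, 0 and 1 did in iNSC. Of 13388 protein-coding genes with a peak in any list, 10002, 8225 and 10025 had one in SSC and 6565, 7108 and 7039 in iNSC. The part of these markers in the SSC loci was not tested.

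The 145 loci long only in iNSC were led by genes of several kinds. Trim56, a ubiquitin ligase of antiviral defence, had 8929, 4318 and 4669 bases in iNSC and at most 923, 2167 and 2233 in SSC; its long peaks ran past the 3′ end of the RefSeq gene. Gvin1, an interferon-induced GTPase gene with near-identical copies that can share its reads, had 8158, 4314 and 7533 bases against 293, 255 and 200. In iNSC replicate 2 more than 1 long peak lay at the Gvin1 locus, together covering 98.7% of it. Apc2, a neural relative of Apc, had 7231, 6407 and 5982 bases against 287, 2388 and 943 (chr10:80311033-80318263). The iNSC widths exceeded every SSC width in each of these, by the choice of the loci.

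Further down the same list, Prune2 had 6550 bases in each iNSC list and 962, 724 and 0 in SSC. Ddr2, a collagen receptor gene, had 5683, 5683 and 3773 bases and 281, 0 and 255 in SSC. Aak1, a kinase gene of clathrin-mediated uptake, had 5072, 5048 and 5974 bases, with a peak of 2241 bases in SSC replicate 1 alone. Stard9, which encodes a mitotic kinesin, had 7238, 5493 and 4104 bases, and 2874, 0 and 2297 in SSC, and Lrrc58, a leucine-rich repeat gene, had 7605, 3827 and 3822 bases with no SSC peak. Sh3pxd2b, the relative of Sh3pxd2a, had 6161, 3266 and 5902 bases against 320, 1515 and 576.

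Sensors and effectors of innate immunity recurred among these loci, a group chosen after the values were seen and so without support from its count. The RNA sensor gene Tlr7 had 3560 bases in each iNSC list and no SSC peak, and Rnf213, a ubiquitin ligase, had 3603 bases in each and no SSC peak. Znfx1, an RNA helicase of antiviral defence, had 3371, 3329 and 3371 bases and no SSC peak. Tlr4, which recognises bacterial endotoxin, had 3572 bases in each iNSC list and 203 bases in SSC replicate 3. Ifit2, an interferon-induced gene, had 3446, 3358 and 3089 bases, and 441, 0 and 453 in SSC. Samd9l, also interferon-induced, had 3593, 4927 and 4857 bases, and 259 bases in SSC replicate 1. Scores in this group were not uniformly high: Tlr4 had 82.8, 2545 and 252 in iNSC, while Rnf213 and Ifit2 were at 3100 in all 3 iNSC lists.

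Of genes of connective tissue, Vcan, the matrix proteoglycan versican, chosen after its values were seen, had 5217 bases in each iNSC list and 664, 0 and 1777 in SSC. Pdgfra, a growth factor receptor gene and 1 of the 8 fibroblast and feeder markers, had 3252 bases in each iNSC list and 808, 748 and 1061 in SSC. A peak of any width was found for 5, 3 and 8 of these 8 markers in SSC and for 4, 3 and 4 in iNSC, and no other marker of the list had a long peak. Of the 7 neural markers 3 had a peak in each SSC list and 2 in each iNSC list. The endothelial list had 4, 3 and 4 of 5 with a peak in SSC and 0 of 5 in each iNSC list, the epithelial list 3, 3 and 2 of 4 and 0 of 4, and the testicular somatic list 3, 4 and 3 of 7 and 1 of 7. Over the 13388 protein-coding genes with a peak in any list, it was 10002, 8225 and 10025 in SSC and 6565, 7108 and 7039 in iNSC. The SSC lists thus had a peak in more genes in general, and no cell type is read from these marker counts. The part of other cells in the long loci was not tested.

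The SSC lists were not empty at the loci long only in iNSC. Of the 145, 22 had no peak in any SSC list, 33 had one in 1 list, 34 in 2 lists and 56 in all 3. Single lists had no peak at 38, 71 and 57 loci, 1 shorter peak at 63, 46 and 46, and at least 2 shorter peaks at 44, 28 and 42. The median share of the locus covered by SSC peaks was 23.5%, 6.70% and 17.7%. At 50 of the 145 loci some SSC list held a peak of 2000 bases or more, and at the rest every SSC peak was narrower than that. SSC replicate 2, the shortest of the SSC lists, had the most empty loci.

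Many of the SSC peaks at these loci came as several pieces. At 12 of the 145 loci every SSC list held at least 2 shorter peaks. Trim56 had 7, 3 and 3 of them, covering 36.6%, 48.9% and 61.0% of the locus. Fzd7, named above for its start site, had 2 in each, covering 46.1%, 70.8% and 56.6% of the locus, against long peaks of 4352, 4152 and 4449 bases in iNSC. Over the 114 cases of a locus and SSC list with at least 2 shorter peaks, the largest gap between neighbours had a median of 562 bases, from 3 to 3637. From the first to the last of these peaks was 3000 bases or more in 62 cases (54.4%). Jun sat close to the threshold, with SSC peaks of 2685, 2944 and 1346 bases covering 84.2%, 92.3% and 78.4% of its locus, and 3189 bases in each iNSC list. Gas1, a growth arrest gene chosen after its values were seen, had 3131 bases in each iNSC list and 552, 940 and 436 bases in SSC.

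**Figure D4:**
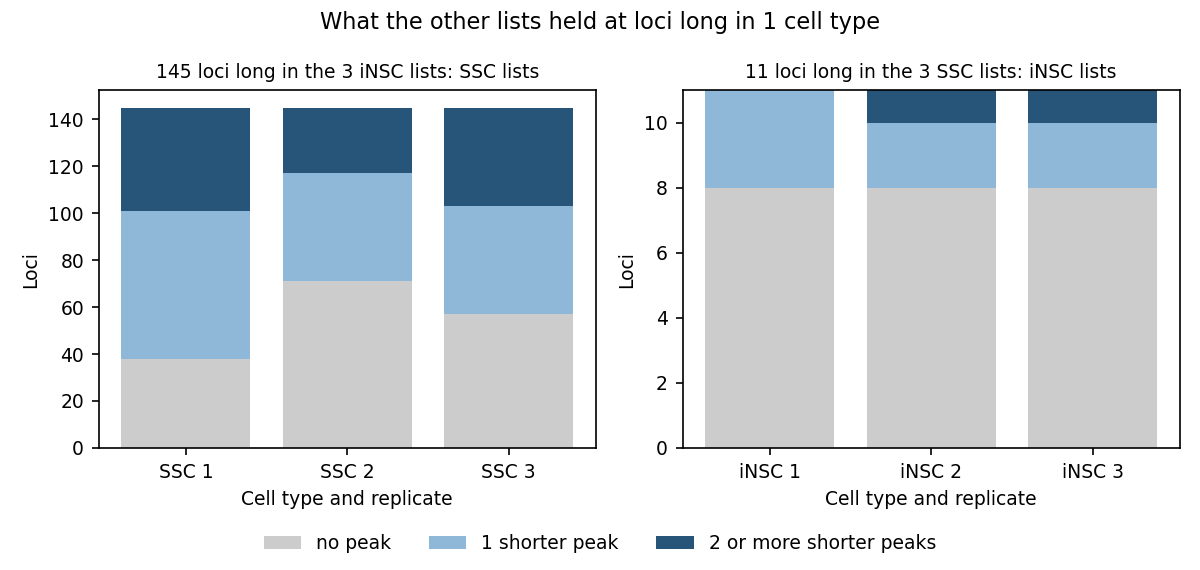
Number of loci (vertical axis) by what each list of the other cell type holds, at the 145 loci long in 3 iNSC and 0 SSC lists (left) and at the 11 loci long in 3 SSC and 0 iNSC lists (right); grey is no peak, light blue 1 shorter peak and dark blue at least 2. On the left 38, 71 and 57 loci are empty in the 3 SSC lists, and on the right 8 are empty in each iNSC list.

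With any peak counted, 40 of the 635 loci (6.3%) had one in the 3 iNSC lists and no SSC list, and 292 (46%) had one in all 6 lists. The 22 loci with no SSC peak of any width lay in genes that included Tlr7, Rnf213, Znfx1 and Lrrc58. They also included the activity-dependent homeobox gene Adnp (4208, 4164 and 4008 bases in iNSC), the signalling gene Smad3, the polycystin gene Pkd1, the histone demethylase gene Kdm2a and the kinase anchor genes Akap11 and Akap13.

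Long peaks lay toward the 3′ end of genes. The median position of their midpoint along the gene, from 0% at the start to 100% at the end, was 84.3%, 83.4% and 84.8% in SSC and 87.7%, 87.2% and 88.0% in iNSC. The midpoint was in the last 20% of the gene for 57.2% ± 2.35 (SD, n = 3) of the long peaks in coding genes in SSC and 63.4% ± 1.15 (SD, n = 3) in iNSC. Shorter peaks had 35.0% ± 2.47 and 41.2% ± 2.03 there. In the first 20%, long peaks had 4.15% ± 1.39 in SSC and 4.30% ± 0.139 in iNSC, and shorter peaks 19.1% ± 3.00 and 18.8% ± 3.01. Both cell types thus had most long peaks at the far end and few near the start.

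Most long peaks lay inside their gene without touching its ends: 79.6% ± 2.60 (SD, n = 3) in SSC and 67.8% ± 1.68 (SD, n = 3) in iNSC. They reached the 3′ end only in 14.2% ± 2.89 and 26.8% ± 1.44, the 5′ end only in 5.05% ± 0.615 and 3.54% ± 0.331, and spanned the whole gene in 1.12% ± 0.084 and 1.91% ± 0.974. Among the whole-gene peaks were those of D1Pas1 and Sox4 in the 3 SSC lists, and of Jun and Gas1 in the 3 iNSC lists. Irf2bpl, at 3874, 3853 and 3857 bases in SSC and 4112, 4112 and 3990 in iNSC, spanned its gene in 2 iNSC lists. In 44 of the 1837 cases a long peak ran past the RefSeq 3′ end by over 100 bases, and in 0 past the 5′ end.

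The share of coding long peaks that reached the 3′ end was 16.3%, 12.2% and 17.6% in SSC and 30.5%, 27.1% and 28.6% in iNSC. The groups did not overlap, with means 13.3 points apart (exact two-sided permutation test over 3 against 3 lists, p = 0.1, adjusted p = 0.1 over 3 group tests). That is the smallest p that 3 against 3 can give, so no difference of this design can pass a stricter threshold. Shorter peaks reached it in 4.31%, 3.96% and 4.76% in SSC and in 11.3%, 10.9% and 8.92% in iNSC, so they too were higher in every iNSC list. At the 5′ end the long peaks gave 5.43%, 6.71% and 6.38% in SSC and 6.18%, 5.31% and 4.84% in iNSC, which overlap.

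Edges of long peaks often coincided with an edge of the gene. An edge within 1 base of the edge of its gene was found for 17.3%, 14.5% and 19.0% of long peaks in SSC and 27.7%, 25.4% and 24.9% in iNSC. The means differed by 9.03 points, and the groups did not overlap (exact permutation test, p = 0.1, adjusted p = 0.1). Shorter peaks had 5.34%, 6.45% and 6.54% in SSC and 12.8%, 11.3% and 11.3% in iNSC. Long peaks exceeded the shorter peaks of their own list by 12.5 points on average (SD 2.40, higher in 6 of 6 lists, from 8.10 to 14.9). No allowance was made for width, and wider peaks reach more of a gene, so this excess is a description with no p.

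Edges also recurred between the cell types. An edge at the same base as an edge in some list of the other cell type was found for 79.5%, 79.4% and 76.7% of long SSC peaks and for 73.4%, 72.9% and 73.1% of long iNSC peaks. For shorter peaks it was 36.6%, 47.1% and 40.1% in SSC, and from 70.0% to 75.02% in iNSC. Counted by any 1 edge, long peaks were thus above shorter ones in the SSC lists and close to them in the iNSC lists. Counted by both edges the order was another: 30.8%, 33.3% and 29.6% of long and 22.6%, 32.3% and 26.6% of shorter peaks in SSC, and 23.7%, 24.5% and 22.6% of long and 50.3%, 46.4% and 45.6% of shorter peaks in iNSC. The difference between the cell types was not tested, and the SSC lists hold more peaks.

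The deposited score of a peak ran from 50 to 3233.06 over the 6 lists with a pile at 3100, called the cap here; its unit is not given in the sources used here. Median scores of long peaks were 1539, 1226 and 1063 in SSC and 3100 in each iNSC list. The share of long peaks at or above the cap was 33.5%, 24.8% and 26.5% in SSC and 56.4%, 68.3% and 64.2% in iNSC. The groups did not overlap, at 28.3% and 63.0%, 34.7 points apart (exact permutation test, p = 0.1, adjusted p = 0.1). Shorter peaks were at the cap in 3.53%, 7.41% and 4.33% in SSC and in 13.5%, 16.3% and 14.8% in iNSC. Within each list the long peaks exceeded the shorter by 17.4 to 52.1 points, with a mean of 35.6 (SD 14.5, higher in 6 of 6 lists). Width separates the 2 kinds of peak and no allowance was made for it, so this excess too is a description with no p. Whether the score grows with width by its construction was not tested.

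Genes with a long peak were counted in gene classes, as a share of the class members that had any peak in the same list. Over all protein-coding genes it was 1.87% ± 0.106 in SSC and 6.12% ± 0.553 in iNSC (SD, n = 3), or 612 of 13388 genes (4.57%) in any list. Large cytoskeletal and scaffold genes had 27.2% ± 1.95 and 54.0% ± 1.99, the largest share of the lists examined in both cell types, with 19 of 39 genes in any list. That class was drawn up for genes known to be large. It is not purely cytoskeletal, since Spen, named above as a transcriptional repressor, and Mki67 are in it. Its members include Plec, Spen, Mki67 and the microtubule-binding genes Map1b (6490, 4072 and 6455 bases in SSC, 6490 in each iNSC list) and Map1a (3324, 4243 and 2637 bases in SSC, 8104 in each iNSC list, chosen after its values were seen). At Map1b a further, shorter peak in SSC replicate 2 brought the covered share of the locus to 99.3%.

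**Figure D5:**
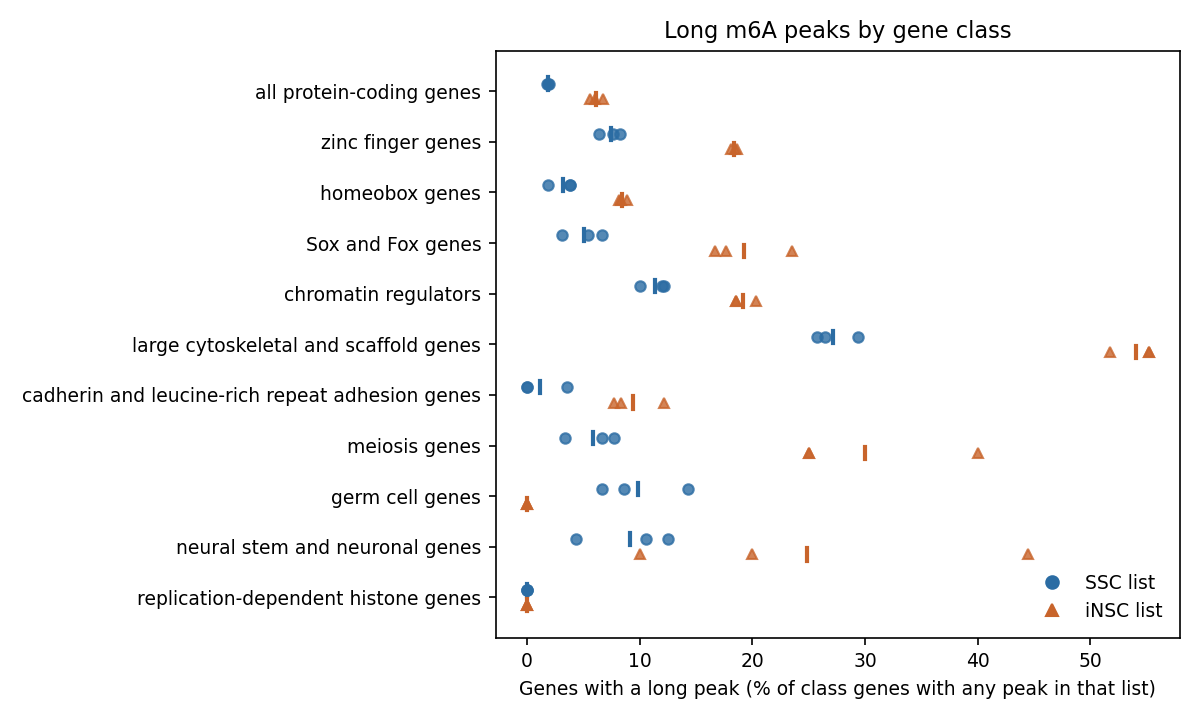
Share of the genes of each class with any peak in a list that have a long peak there (percent), circles for the 3 SSC and triangles for the 3 iNSC lists, with a tick at each mean. Large cytoskeletal and scaffold genes stand at 27.2% and 54.0%, zinc finger genes at 7.41% and 18.4%, and all protein-coding genes at 1.87% and 6.12%.

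Zinc finger genes had 7.41% ± 0.950 in SSC and 18.4% ± 0.268 in iNSC, or 91 of 487 genes in any list. This class was set by how gene symbols begin, so it takes in Znfx1 and leaves out Peg3. Of the loci of this class 10 were long in all 6 lists, 1 only in the 3 SSC lists and 23 only in the 3 iNSC lists. Over all protein-coding genes these counts were 69, 11 and 143. Zfhx3 had 4496, 5388 and 5454 bases in SSC and 5454 in each iNSC list, and Zfp646 had 5312, 5349 and 5349 and 5349 in each. Chromatin regulators had 11.4% ± 1.20 and 19.1% ± 0.992, or 17 of 76 genes. Besides Kat6a, Ash1l and Setd2, Asxl1, a Polycomb-associated gene, was long in all 6 lists, with 3532, 3804 and 3304 bases in SSC and 3840, 4254 and 4769 in iNSC. Genes of very near sequence, which zinc finger clusters hold, may share reads.

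Genes with symbols of homeobox transcription factor families had 3.16% ± 1.13 and 8.46% ± 0.379, with 5 of 85 genes. This class too was set by how gene symbols begin, so not every member need hold a homeobox. Tshz1 had 2221, 2828 and 1664 bases in SSC and 4615 in each iNSC list, and Adnp2 had 3530, 4403 and 0 and then 4628, 4612 and 4617. Sox and Fox genes had a long peak in 1 of 32, 2 of 30 and 2 of 37 members with any peak in SSC (5.07% ± 1.80). In iNSC it was 3 of 18, 4 of 17 and 3 of 17 (19.3% ± 3.71), and in any list 6 of 44 genes. Among them Foxm1, a cell cycle factor whose peak overlaps a neighbouring gene, had 1479, 0 and 3003 bases in SSC and 3117 in each iNSC list. Cadherin and leucine-rich repeat adhesion genes had 1.19% ± 2.06 and 9.38% ± 2.39, with 5 of 69 genes. Fat1, a giant cadherin, had 2 long loci, with 4068 bases in SSC replicate 1 and in each iNSC list at one (chr8:45022804-45026871). At the other (chr8:44950208-44953481) it had 3274 bases in each iNSC list and no SSC peak. The protocadherin gene Pcdh19 had 267, 803 and 432 bases in SSC and 3876, 3876 and 3867 in iNSC.

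Germ cell genes had a long peak in 3 of 35, 3 of 21 and 2 of 30 members with any peak in the SSC lists (9.84% ± 3.97), and in any list 4 of 45 genes did (D1Pas1, Zbtb16, Tex15 and Usp26). In iNSC only 3, 2 and 3 members had any peak and none had a long one, too few to read a share from. Meiosis genes had 5.90% ± 2.28 in SSC and 30% ± 8.66 in iNSC, where only 5, 4 and 4 members had any peak. Long ones were Brca2, in all 6 lists, Tex15, in SSC, and Mlh3, with 3320, 2622 and 2631 bases in iNSC and none in SSC. Neural stem and neuronal genes had 9.12% ± 4.25 and 24.8% ± 17.7, with 5 of 26 genes, and the lists of the groups overlap. Only 9, 10 and 10 of these genes had any peak in iNSC.

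Single neural genes went both ways. Nes, the gene of the neural stem cell filament nestin, was wider in SSC, with 5031, 5026 and 5031 bases there and 3115, 2920 and 3012 in iNSC (chr3:87975421-87980451). Its score was 3100 in each SSC list and 59.4, 116 and 198 in iNSC. Nrp2, a semaphorin coreceptor gene, had 3363 bases in each iNSC list and only 256 bases in SSC replicate 1. Notch1, a cell fate receptor, had 1847, 0 and 3075 bases in SSC and 3075, 2744 and 2874 in iNSC, so its groups overlapped.

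Some groups had few or no long peaks. None of the 26 replication-dependent histone genes with a peak had a long one, which the width rule fixes, since these genes are short. Of the 145 long noncoding RNA genes with a peak 2 had a long one, and of the 191 pseudogenes 2. Ccnd1, Nfkbia, Nfkbib, Nfkbie, Nfkb1, Rela and Ythdf1, the axis in the series title, had no long peak in any of the 6 lists.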

How the data were processed

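The authors' deposited files are 6 peak lists, 1 per pull-down library, each with position, a peak name that begins with MACS, a score and a strand. Per the submitters' processing notes, cutadapt 1.9.3 and HISAT2 2.0.4 were used, and mm9 is the named build. Peak positions fit RefSeq genes of GRCm38, which was used for names, strands and gene spans. For the score that the authors deposited per peak, neither the unit nor the calling threshold is given in the sources used here; apart from the MACS in the peak names, nothing names the caller. Read depth is unknown, so no counting interval is given; the number of peaks per list stands in its place.

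Peaks of 3000 bases or more were taken as long. Each was assigned to a RefSeq gene by an overlap of at least 1 base on its strand, protein-coding genes first. Gene strand came from the RefSeq promoter table, else from the peaks, and the 2 sources matched for 10046 of 10161 genes (98.9%). Long peaks sharing at least 1 base of a strand were merged into loci, and the widest peak of each list at the locus was recorded. A list can hold further peaks there, so a narrower widest peak need not mean that less of the locus is covered. Group tests were exact permutation tests over lists with Benjamini-Hochberg adjustment. Width, counts, sharing and the comparisons of long with shorter peaks have no test. Python 3.11.15, numpy 2.4.6, pandas 2.3.3 and scipy 1.17.1 were used, and the scripts were tested on simulated data.

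Genes were named by a rule: the 10 widest loci per sharing pattern, the 5 longest peaks per cell type, up to 4 members per class, the 3 peaks on each side of the threshold, up to 5 loci per direction split into shorter peaks, and the genes of the series title. Others are said to be chosen after their values were seen, and the genes with a start-site or miRNA sequence were named for that sequence. The members, class lists and marker lists were chosen with earlier results of these data known. Alternatives were other widths, the better-scoring 50% of each list, other overlaps, tolerances and score limits, a replicate block and leaving out each library. Some items the rule would name are not reported here.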

Additional observations from a re-analysis of the deposited data

How the results depend on the processing

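The width limit moved the counts most. The mean of long peaks per list was 258 higher in iNSC than in SSC at 3000 bases, 697 at 2000 and 83.3 at 4000. Loci long in 3 SSC and no iNSC lists numbered 11, 48 and 3 at these 3 limits, those long in 3 iNSC and no SSC lists 145, 437 and 45, and those long in all 6 lists 69, 233 and 28. The excess of long over shorter peaks with an edge on a gene edge was 12.5 points, and 6.04 points at 4000 bases. Long peaks had such an edge in 21.5% at 3000 bases and 15.2% at 4000, and shorter peaks in 8.97% and 9.17%. The cause was not tested.

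Leaving out each library gave 247.8 to 268.8 more long peaks in iNSC. It gave 161 to 179 loci long only in iNSC lists and 69 to 91 loci long in all remaining lists. Loci long only in SSC lists numbered 11 to 18, with 17 without SSC replicate 1 and 18 without SSC replicate 3. Fewer lists then had to agree, so these counts of loci were bound to stay or rise and are no check on the main counts. The excess of long over shorter peaks ran from 12.04 to 13.4 points at gene edges and from 32.4 to 39.3 points at the score cap. The differences between cell types ran from 32.0 to 38.0 points at the cap, 7.82 to 10.1 at gene edges and 11.8 to 14.4 at the 3′ end. The share of the loci long only in iNSC that SSC peaks cover ran from 17.8% to 30.2%, an alternative chosen after seeing the data.

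With the replicate number as a block, the cap, gene-edge and 3′ end differences stayed at 34.7, 9.03 and 13.3 points, with p = 0.25, the smallest exact sign-flip p over 3 pairs. Deviations of same-numbered lists correlated at 0.0123, -0.0016 and 0.0320, so the numbers were not taken as pairs. The better-scoring 50%, an overlap of 50%, an edge tolerance of 10 bases and a score limit of 1000 kept the direction of the summary counts and differences they were run on, and counts stayed within 1.5 times. Of 62 named loci the better-scoring 50% changed the number of lists with a long peak, iNSC minus SSC, at 13, with none reversed. Mlh3 went to 0, Brca2 and Zfp518a to 1 and Nes to -3. Read depth is unknown, and the SSC lists hold more peaks than the iNSC lists.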
